A study of Mus musculus with 9 samples.

Results

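Tumorspheres grown from mammary tumors were compared with mammospheres grown from normal mammary glands across all genes on the array. The comparison took the 3 arrays that GEO labels as tumorspheres and the 3 labelled as mammospheres, 6 of the 9 arrays of the series. The other 3 hold mammosphere cells that were plated and kept for 7 days in medium with serum, and they entered the fit for its estimate of the spread. The tumors arose in Her2/Neu transgenic mice (MMTV-Neu [N2O2]), in which the MMTV promoter, active mainly in mammary epithelium, drives the transgene, and the labels give no strain, age or sex for them. The paper calls FVB/N mice syngeneic hosts for its primary tumor cells. The mammospheres came from the #3 and #4 glands of virgin female FVB/N mice of 6 to 8 weeks. Bulk primary cells formed both kinds of sphere in one stem cell medium, with no sort for any cell type, passaged every 7 days and harvested at passages 3 to 5. The labels describe 3 independent cell populations per group, the tumorspheres being cultures of independent tumors and the mammospheres separate preparations, for which pooling of animals is not given in the sources used here. The label of mammosphere array 858A carries a suffix R that is not explained. The tumorsphere arrays, 1099A to 1101A, have codes of another run than mammosphere arrays 858A to 860A, so that the array run and the kind of culture cannot be told apart in any result that follows.

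The mammary gland is lined by luminal cells, which carry keratins 8 and 18 and E-cadherin and make milk, and by basal or myoepithelial cells, which carry keratins 5 and 14, p63 and smooth muscle actin. Luminal progenitors express Elf5 and Kit, and mature hormone-sensing cells the estrogen and progesterone receptors. Sphere culture without attachment favors cells that can divide under these conditions, and spheres from bulk tissue can also hold fibroblasts and other stromal cells.

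Levels are log2 intensities of a probe set, after addition of 8.67, 10% of the median intensity, and quantile normalization. A difference is a log2 fold change of tumorspheres over mammospheres on that scale, which understates the change of dim probe sets, and a gene is called higher or lower at an adjusted p under 0.05 from limma over 22626 probe sets. The precision is limited by the 3 arrays per group. Of the probe sets, 1471 (6.5%) were higher in tumorspheres and 1760 (7.78%) were lower. The tumorsphere and mammosphere arrays did not overlap, in either direction, for 33.3% of all probe sets, whether called or not. With 1 probe set per gene, that of the highest mean, 771 of 12393 genes (6.22%) were higher and 885 (7.14%) were lower, and the median over all genes was 0.0025. The largest rises were larger than the largest falls, while the median over called genes was 0.43 for rises and -0.41 for falls. A log2 fold change above 2 was called for 25 genes and one below -2 for 1 gene, Efemp1, while 97 genes were higher by more than 1 and 27 lower by more than 1. With arrays centred on their medians in place of quantile normalization, 34.0% of the called probe sets were higher instead of 45.5%. The calls also depended on the mammosphere arrays, since 1866 probe sets were called without array 859A and 1913 without array 860A, in place of 3231.

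**Figure D1:**
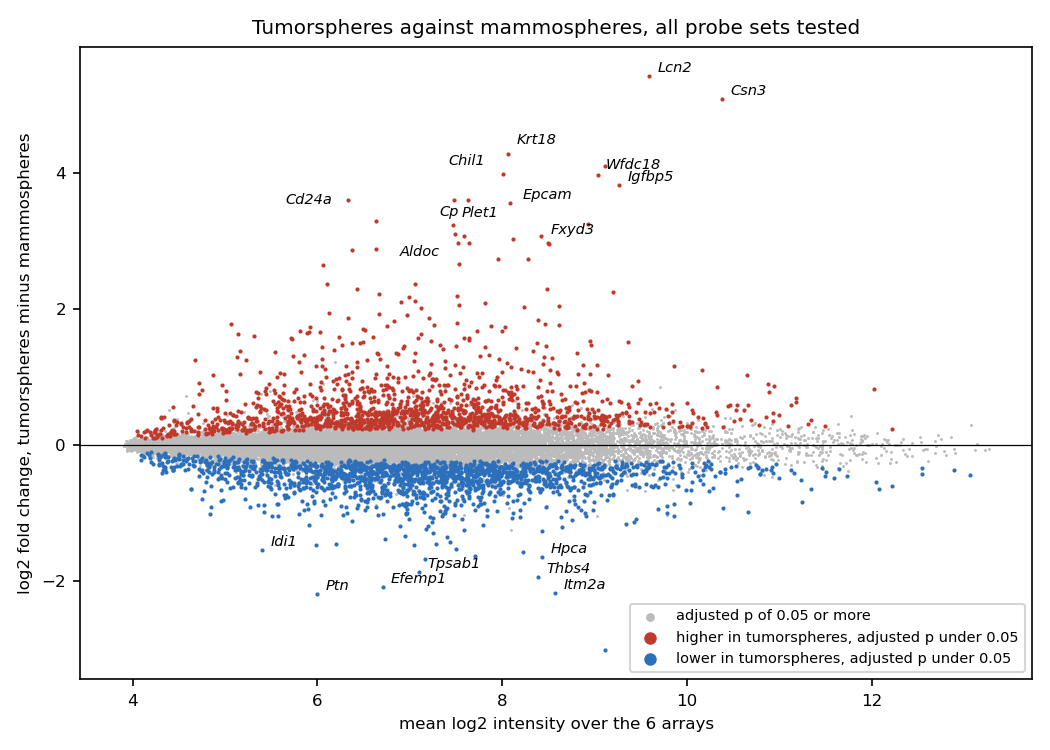
Log2 fold change of tumorspheres over mammospheres (y axis) against the mean log2 intensity over the 6 arrays (x axis), 1 point per probe set, with the 1471 probe sets called higher in red and the 1760 called lower in blue. The rises reach 5.42 for Lcn2, and the largest of them lie further from 0 than the largest falls.

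The largest rises were of genes for secreted proteins and for the surface and keratins of luminal epithelium. Lcn2, which encodes the iron-siderophore carrier lipocalin 2, had log2 levels of 12.36, 12.05 and 12.50 in the tumorspheres and 6.34, 6.96 and 7.33 in the mammospheres (log2 fold change 5.42, standard error 0.199, adjusted p = 2.91e-08), a 42.9-fold difference. Csn3, the gene of the milk protein κ-casein, stood at 13.05, 12.85 and 12.85 in the tumorspheres and 7.22, 7.91 and 8.37 in the mammospheres (log2 fold change 5.08, standard error 0.218, adjusted p = 6.36e-08). In both genes the lowest tumorsphere lay far above the highest mammosphere, and the mammosphere arrays were spread more widely than the tumorsphere arrays. Whether fewer cells of a type or less RNA per cell lie behind such a difference cannot be told apart in RNA of whole cultures. Wfdc18, a secreted protein of the whey acidic protein family, had 11.01, 10.97 and 11.08 in the tumorspheres and 6.85, 7.05 and 7.24 in the mammospheres (3.97, adjusted p = 8.78e-10), and Chil1, a secreted chitinase-like glycoprotein, was higher by 3.98 (adjusted p = 2.92e-07). Igfbp5, which binds insulin-like growth factors, was higher by 3.82 with 1 probe set and by 1.52 with the brighter one. Cp, the copper-carrying ferroxidase ceruloplasmin, was higher by 3.60, and 5 of its 6 other probe sets were higher as well. Plet1, a surface protein, Fxyd3, a regulator of the sodium pump, and Aldoc, the glycolytic aldolase C, were higher by 3.23, 3.07 and 2.97. Of Plet1 and Aldoc a second probe set gave 0.13 and 0.24, and the former did not pass. The remaining 6 of the 15 largest rises were Krt18, Krt8, Cd24a, Epcam, Cldn7 and Cldn3.

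Luminal keratins and surface proteins were higher in tumorspheres for 11 of 16 measured genes and lower for none, with a median difference of 0.87. Krt18, a keratin of simple epithelia, had log2 levels of 9.79, 10.15 and 10.67 in the tumorspheres and 5.58, 5.94 and 6.27 in the mammospheres (log2 fold change 4.27, standard error 0.208, adjusted p = 1.94e-07). Its partner Krt8 stood at 10.28, 10.35 and 11.03 in the tumorspheres and 7.08, 7.32 and 7.52 in the mammospheres (log2 fold change 3.25, standard error 0.182, adjusted p = 6.01e-07). Epcam, an epithelial adhesion protein, had its lowest tumorsphere at 9.64 and its highest mammosphere at 6.46 (log2 fold change 3.56, standard error 0.127, adjusted p = 2.89e-08), and Cd24a, a surface sialoglycoprotein used to sort mammary epithelium, was higher by 3.29 (adjusted p = 3.04e-06). For each of these 4 genes every tumorsphere array lay above every mammosphere array, while 33.3% of all probe sets had groups without overlap. The plated, serum-treated cells had means of 5.49, 7.26, 6.07 and 4.85 in this order, below every tumorsphere array. Tumorsphere array 1101A was the highest for Krt18, Krt8 and Cd24a. The 5 genes that did not pass were Muc1, Kit, Tspan8, Krt19 and Anxa8, with differences of 0.17, 0.15, 0.10, 0.07 and 0.01. Krt19, another luminal keratin, had 5.99, 5.86 and 5.69 in the tumorspheres and 5.83, 5.78 and 5.74 in the mammospheres, where the groups overlap.

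Transcription factors of the luminal lineage were higher in tumorspheres for 8 of 20 measured genes and lower for none, with a median of 0.23. Elf5, the regulator of alveolar luminal cells, had 7.74, 7.57 and 8.12 in the tumorspheres and 4.91, 4.98 and 4.92 in the mammospheres (log2 fold change 2.87, standard error 0.114, adjusted p = 4.16e-08), and Gata3, which maintains the luminal fate, 6.75, 6.66 and 6.81 in the tumorspheres and 5.11, 5.03 and 5.11 in the mammospheres (log2 fold change 1.66, standard error 0.0689, adjusted p = 5.52e-08). The mammosphere values of both lay close together and near the means of the serum-treated cells, 4.88 and 5.15. Tfap2c, an AP-2 factor, was higher by 1.59 (adjusted p = 4.85e-05) and Hey1, a Notch-responsive repressor, by 1.44 (adjusted p = 5.75e-06). The receptor genes of hormone-sensing cells did not pass the test. Esr1 had log2 levels of 5.94, 5.88 and 5.87 in the tumorspheres and 5.88, 5.97 and 5.91 in the mammospheres (difference -0.02, adjusted p = 0.873) and Pgr gave 0.05 (adjusted p = 0.689), with overlapping groups for both. Of the markers used for mammary stem and progenitor cells, 8 of 18 were higher and 1 was lower, the median being 0.31. Besides Cd24a these included Prom1, a membrane protein of apical protrusions, with 1.03 (adjusted p = 1.60e-04), and Thy1, with 1.04 (adjusted p = 0.00388), a protein that fibroblasts also carry. The drug efflux transporter gene Abcg2 was lower, with 6.49, 6.57 and 6.73 in the tumorspheres and 7.26, 7.29 and 7.33 in the mammospheres (log2 fold change -0.70, standard error 0.117, adjusted p = 0.00226).

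Milk protein and secretion genes were higher for 7 of 18 and lower for 1. Beside Csn3 the largest were Muc15, a membrane mucin of milk fat globules, with 2.87 (adjusted p = 4.16e-08), and Csn1s1, α-casein, with 8.32, 8.61 and 7.07 in the tumorspheres and 6.49, 6.47 and 6.44 in the mammospheres (log2 fold change 1.53, standard error 0.285, adjusted p = 0.00394). Csn1s1 was lowest in tumorsphere array 1101A and still above the mammospheres there. Csn2, Wap and Glycam1, also genes of milk proteins, gave 0.02, 0.12 and 0.02 and did not pass. Lpl, lipoprotein lipase, was lower by -0.80 as a signed difference (adjusted p = 3.89e-04).

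**Figure D2:**
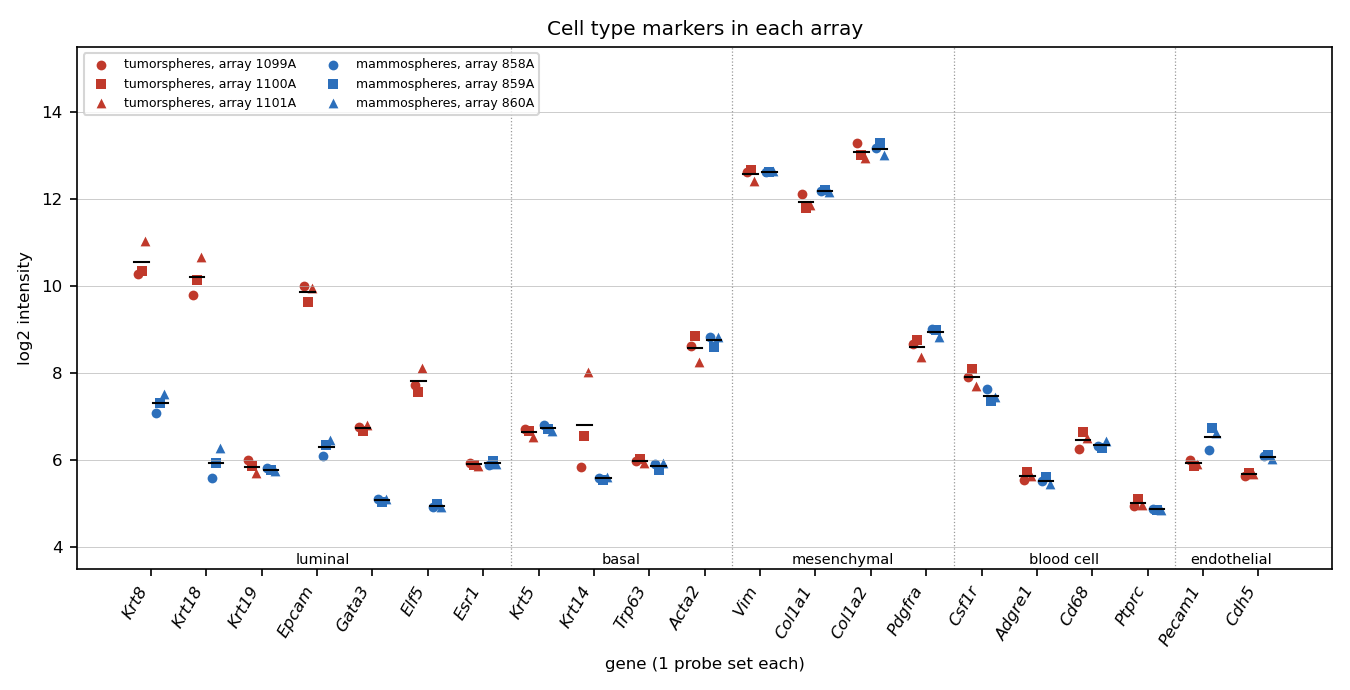
Log2 intensity (y axis) of 21 cell type markers (x axis, 1 probe set per gene) in each array, tumorspheres in red and mammospheres in blue, with 1 symbol per array and the group mean as a bar. Krt8, Krt18, Epcam, Gata3 and Elf5 are separated by more than 1.5, while Krt5, Trp63, Acta2, Vim, Col1a2, Adgre1 and Cd68 lie side by side. Heights of different genes are not comparable, since probe sets differ in brightness.

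Genes of tight junctions, adherens junctions and desmosomes, which hold epithelial cells together, were higher in tumorspheres for 22 of 32 measured and lower for none, with a median of 0.54. Claudin genes led the list. Cldn7 had 8.90, 8.80 and 9.67 in the tumorspheres and 5.95, 6.09 and 6.10 in the mammospheres (log2 fold change 3.08, standard error 0.177, adjusted p = 7.62e-07), and Cldn3 was higher by 2.24 with its brightest probe set (adjusted p = 1.61e-05) and by up to 3.02 with others. Cldn4 had 7.55, 7.94 and 8.92 in the tumorspheres and 6.14, 6.33 and 6.34 in the mammospheres (log2 fold change 1.87, standard error 0.252, adjusted p = 5.60e-04) and was highest in array 1101A. Claudins were not all higher, since Cldn1, Cldn6 and Cldn8 gave -0.13, 0.02 and -0.02 and did not pass. The count of 22 did not move by more than 1.5 times when any 1 array was left out, and 14 of the 18 genes kept by a filter on dim probe sets were higher.

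Few basal and myoepithelial genes passed the test. Of 24 measured, Igfbp5 was higher and Snai2 lower, with a median of 0.031, and 5 were higher with array weights. Krt5 had 6.71, 6.68 and 6.54 in the tumorspheres and 6.80, 6.73 and 6.66 in the mammospheres (-0.09, adjusted p = 0.528), and Trp63, the gene of p63, gave 0.11 (adjusted p = 0.424). Acta2 and the oxytocin receptor gene Oxtr gave -0.17 and 0.22, neither past the test. Krt14 had 5.83, 6.56 and 8.03 in the tumorspheres and 5.59, 5.55 and 5.60 in the mammospheres and did not pass (adjusted p = 0.0515), although all 3 tumorspheres lay above the mammospheres, and the tumorspheres differed among themselves by 2.19. Groups without overlap were found for 33.3% of all probe sets. Of the 2 other probe sets of Krt14, 1 passed. Among 26 genes of squamous differentiation, Sfn, which encodes 14-3-3σ, and Evpl, a cornified envelope protein, were higher by 0.43 and 0.41, and none was lower. The share higher, 7.69%, was near the 6.22% of all genes. Evpl did not pass when array 1099A, 1100A, 858A or 860A was left out.

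Most mesenchymal genes did not pass the test. Vim, the intermediate filament protein vimentin, had 12.62, 12.68 and 12.42 in the tumorspheres and 12.62, 12.62 and 12.64 in the mammospheres, and Col1a2, a chain of type I collagen, 13.28, 13.01 and 12.96 in the tumorspheres and 13.17, 13.28 and 13.01 in the mammospheres. These probe sets did not pass (-0.05, adjusted p = 0.726, and -0.07, adjusted p = 0.684), but a dimmer probe set of Col1a2 was lower, with -0.39. Pdgfra, a receptor of fibroblasts, had 8.68, 8.76 and 8.38 in the tumorspheres and 9.01, 8.99 and 8.82 in the mammospheres and did not pass (adjusted p = 0.0663). Among 17 genes of epithelial-mesenchymal transition, the factor Foxc1 was higher (0.82, adjusted p = 2.95e-04) and Snai2, which encodes Slug, was lower (-0.34, adjusted p = 0.00962), while Twist1, Zeb1 and Cdh2 gave -0.29, -0.22 and 0.21 and did not pass. In this list 4 genes were lower with the values as deposited or centred. Of 29 fibrillar matrix and fibroblast genes 7 were lower and 2 were higher, with a median of -0.21, and 4 were lower without array 859A. The share lower was 24.1%, against 7.14% of all genes, and the share higher, 6.90%, was near the 6.22% of all genes. Pdgfrb, a receptor of fibroblasts and pericytes, had 9.39, 9.34 and 8.90 in the tumorspheres and 9.92, 10.07 and 10.46 in the mammospheres (log2 fold change -0.94, standard error 0.152, adjusted p = 0.00177), although its other probe set gave -0.47 and did not pass. Col6a3, a chain of type VI collagen, and the gelatinase gene Mmp2 were lower, with -0.64 (adjusted p = 0.00139) and -0.60 (adjusted p = 0.0133), the latter not past the test without array 859A. Thy1 and the collagen cross-linking enzyme gene Lox, higher by 0.91 (adjusted p = 0.00872), went the other way.

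Laminins, integrins and other basement membrane genes split by chain. Of 35 measured, 12 were higher and 6 lower, and 6 were higher without array 859A. Itga6, the α6 chain that pairs in hemidesmosomes, had 8.10, 8.42 and 8.70 in the tumorspheres and 7.39, 7.46 and 7.51 in the mammospheres (log2 fold change 0.96, standard error 0.144, adjusted p = 0.00115). Col4a5, a minor chain of type IV collagen, was higher by 0.83 (adjusted p = 3.62e-04). The major chains ran the opposite way. Col4a1 had 10.96, 10.51 and 11.01 in the tumorspheres and 11.52, 11.95 and 11.50 in the mammospheres (log2 fold change -0.83, standard error 0.140, adjusted p = 0.00231), Col4a2 was lower by a signed difference of -1.04 (adjusted p = 9.66e-04) and the basement membrane linker gene Nid2 by -1.46 (adjusted p = 2.17e-04). Among 27 matrix proteases and inhibitors, Serpinb5, the epithelial serpin maspin, and Mmp13, a collagenase, were higher (0.84, adjusted p = 1.31e-04, and 0.52, adjusted p = 0.0260), and 4 were lower, namely Mmp2, Adamts4, the mesenchymal metalloprotease gene Adam12 (-1.05, adjusted p = 1.06e-04) and Timp3, a metalloprotease inhibitor (-0.86, adjusted p = 1.18e-04). Mmp13 did not pass with the authors' scaling alone or with centred arrays, nor when any array but 1101A was left out. The protease list had 7.41% of its genes higher and 14.8% lower, against 6.22% and 7.14% of all genes. The number lower was 8 with the values as deposited or centred, 7 without array 1101A and 9 with array weights.

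Among markers of other cells of the gland, some lists moved and others did not. Macrophage genes were higher in tumorspheres for 11 of 26, against 6.22% of all genes, and lower for none, with a median of 0.33. Lyz2, the lysozyme gene of myeloid cells, had 9.37, 10.32 and 9.21 in the tumorspheres and 7.46, 7.45 and 7.11 in the mammospheres (log2 fold change 2.29, standard error 0.324, adjusted p = 7.74e-04), and C1qa, a complement chain made by macrophages, 7.82, 8.41 and 7.60 in the tumorspheres and 6.88, 6.91 and 6.66 in the mammospheres (log2 fold change 1.13, standard error 0.188, adjusted p = 0.00209). Lyz1, a lysozyme gene of near-identical sequence whose signal may not be separable from that of Lyz2, was higher by 2.73. Array 1100A was the highest in all 3 genes. The summed intensity of the 26 genes was 3421 to 5659 in the tumorspheres and 2200 to 2479 in the mammospheres. Csf1r, the receptor of the macrophage growth factor, was higher by 0.43 (adjusted p = 0.0296), which did not pass when array 1099A, 1100A, 859A or 860A was left out. The other defining markers Adgre1, Cd68 and Ptprc gave 0.10, 0.11 and 0.14 and did not pass. The count was 7 without array 1100A, 7 without array 859A and 6 without array 860A. The part of such cells in the differences of other genes was not tested.

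Of 17 lymphocyte genes limma called 0, with 3 at an unadjusted p under 0.05. Cd79a, a chain of the B cell receptor complex, had 6.30, 6.19 and 6.08 in the tumorspheres and 6.06, 5.96 and 6.20 in the mammospheres, where the groups overlap. Endothelial genes were lower for 5 of 18 and higher for none. Pecam1, an adhesion protein of endothelium, had 6.01, 5.85 and 5.91 in the tumorspheres and 6.23, 6.74 and 6.63 in the mammospheres (log2 fold change -0.61, standard error 0.126, adjusted p = 0.00750), and Emcn and Cdh5 were lower by signed differences of -0.58 (adjusted p = 3.17e-04) and -0.40 (adjusted p = 0.00357), although the other probe set of Cdh5 gave -0.0046 and did not pass. All 5 were dim, since none of the 9 endothelial genes kept by the filter on dim probe sets was called, and the number was 8 without array 1099A or with array weights. The summed intensity of the list was 1601 to 1948 in the tumorspheres and 1911 to 1997 in the mammospheres. Of 13 adipocyte genes, Pnpla2 was higher and Pparg and Lpl were lower, while Adipoq gave -0.05 and did not pass. The other probe set of Pnpla2, at -0.03, did not pass either. Of the adipocyte list 7.69% were higher and 15.4% lower, against 6.22% and 7.14% of all genes. Of 14 Schwann cell and neural genes 3 were higher, namely Erbb3, Sox10 and Cnp, and 3 were lower, Nefl, Ngfr and Pmp22. Sox10, a factor of the neural crest that mammary epithelium also uses, had 8.78, 8.60 and 8.61 in the tumorspheres and 7.57, 7.50 and 7.49 in the mammospheres (log2 fold change 1.15, standard error 0.0742, adjusted p = 2.04e-06). Ngfr, a receptor of nerve growth factor found in Schwann and myoepithelial cells, had 7.37, 7.08 and 7.42 in the tumorspheres and 8.11, 8.32 and 8.10 in the mammospheres (log2 fold change -0.89, standard error 0.157, adjusted p = 0.00302), while its 2 other probe sets gave -0.23 and did not pass. Pmp22 did not pass when any 1 mammosphere array was left out, nor with only the 6 arrays, and Cnp did not pass without array 860A.

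Of the 46 lists, that of mitosis genes held the most genes lower in tumorspheres. Of 49 measured, 33 were lower and none was higher, with a median of -0.37, against 7.14% of all genes. Smc2, a core subunit of condensin, had 6.30, 6.85 and 6.87 in the tumorspheres and 7.66, 7.95 and 7.79 in the mammospheres (log2 fold change -1.13, standard error 0.139, adjusted p = 2.95e-04). Top2a, the topoisomerase that untangles sister chromatids, had 7.63, 7.70 and 7.59 in the tumorspheres and 8.40, 8.34 and 8.28 in the mammospheres (log2 fold change -0.70, standard error 0.0914, adjusted p = 4.66e-04), although a second probe set gave 0.14 and did not pass. Smc4, the partner of Smc2 in condensin, was lower by a signed difference of -0.68 (adjusted p = 0.00206). The 3 tumorsphere arrays were close together, with list medians of -0.35, -0.37 and -0.38 relative to the mean of the mammospheres, whose own arrays stood at -0.01, -0.02 and 0.01. Without array 860A 20 of the 49 genes were lower. Genes of DNA replication and S phase moved the same way, with 20 of 54 lower, none higher and a median of -0.22. The largest were Msh6, a mismatch repair protein, with 5.54, 5.66 and 5.85 in the tumorspheres and 6.28, 6.37 and 6.26 in the mammospheres (log2 fold change -0.62, standard error 0.113, adjusted p = 0.00352), Dbf4, the activator of the Cdc7 kinase, with -0.56 (adjusted p = 0.00573) and a second probe set at 0.09 that did not pass, and Mcm6, a subunit of the replicative helicase, whose highest tumorsphere was 7.42 and lowest mammosphere 7.88 (log2 fold change -0.55, standard error 0.0722, adjusted p = 4.66e-04). This count was 13 without array 1100A and 12 without array 860A. In contrast to these genes, Ccnd1, which encodes cyclin D1 and acts earlier in the cycle, had 10.93, 11.05 and 10.28 in the tumorspheres and 9.98, 9.74 and 9.96 in the mammospheres (log2 fold change 0.86, standard error 0.162, adjusted p = 0.00429), and of its 2 other probe sets 1 passed. Among 23 cyclins, inhibitors and RB family genes, Ccnd1 was the only one called higher, and Cdk2, Cdkn2c, Rbl1, Cdk4 and Ccne2 were lower, by up to 0.43, while 8 were lower with centred arrays.

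The stretches of 250 bases before the transcription start are shown for 3 of these genes from the RefSeq promoter sequences of GRCm38.p6, because many mitotic promoters carry CCAAT boxes and a cell cycle element whose core is TTTGAA, and replication promoters carry E2F sites. They are written 5′ to 3′ on the strand of the gene, and capitals mark the letters CCAAT or TTTGAA, or an E2F site of either TTTCGCG or the like motif TTTGGCG, on either strand. Smc2 lies at chr4:52438971-52439220 on the plus strand, Top2a at chr11:99024190-99024439 and Mcm6 at chr1:128359706-128359955 on the minus strand.
Smc2: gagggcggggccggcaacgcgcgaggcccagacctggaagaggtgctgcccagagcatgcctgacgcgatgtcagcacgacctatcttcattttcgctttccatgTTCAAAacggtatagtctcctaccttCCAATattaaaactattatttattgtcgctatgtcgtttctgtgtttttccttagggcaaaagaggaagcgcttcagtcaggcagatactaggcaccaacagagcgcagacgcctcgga
Top2a: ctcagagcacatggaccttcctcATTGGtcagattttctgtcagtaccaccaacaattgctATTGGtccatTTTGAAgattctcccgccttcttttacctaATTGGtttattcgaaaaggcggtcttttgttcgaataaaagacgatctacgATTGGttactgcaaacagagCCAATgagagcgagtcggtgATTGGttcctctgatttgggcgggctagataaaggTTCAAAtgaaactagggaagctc
Mcm6: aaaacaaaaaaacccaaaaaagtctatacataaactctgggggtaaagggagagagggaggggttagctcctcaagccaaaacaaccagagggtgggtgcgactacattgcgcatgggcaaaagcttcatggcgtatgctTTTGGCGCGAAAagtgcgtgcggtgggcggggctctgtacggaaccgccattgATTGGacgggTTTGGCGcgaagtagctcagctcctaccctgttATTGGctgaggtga
Top2a holds 6 matches to CCAAT and 2 to TTTGAA, Smc2 1 of each, and Mcm6 2 matches to CCAAT and 3 to the E2F letters, of which 2 overlap. The same windows of Msh6 and Dbf4, which are not printed, hold no match to the E2F letters or TTTGAA. Msh6 holds 1 match to CCAAT and Dbf4 holds none. Of the 33 mitosis genes lower in tumorspheres, 28 have a promoter in the table, and 71.4% of these hold CCAAT on either strand, against 69.0% of the 42 measured mitosis genes with a promoter and 37.5% of 27025 genes. TTTGAA is present in 35.7%, 38.1% and 18.3% in the same order. Of the 16 replication genes that were lower and have a promoter, 4 hold TTTCGCG or TTTGGCG, against 7 of the 45 measured and 2.22% of all genes. The CCAAT and TTTGAA shares of the lower members lay near those of their whole list, and no test was made. The interferon-responsive core of GAAA repeated after 2 bases is present in 44.1% of 34 interferon-stimulated genes and 3.46% of all genes. In that list of 43, Isg20 was higher and Ifitm2, Oasl2 and Ifi204 were lower. Isg20 did not pass when any 1 array but 1101A was left out, and Oasl2 did not without array 1100A or 859A. A match describes the letters of this window and not a bound site.

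**Figure D3:**
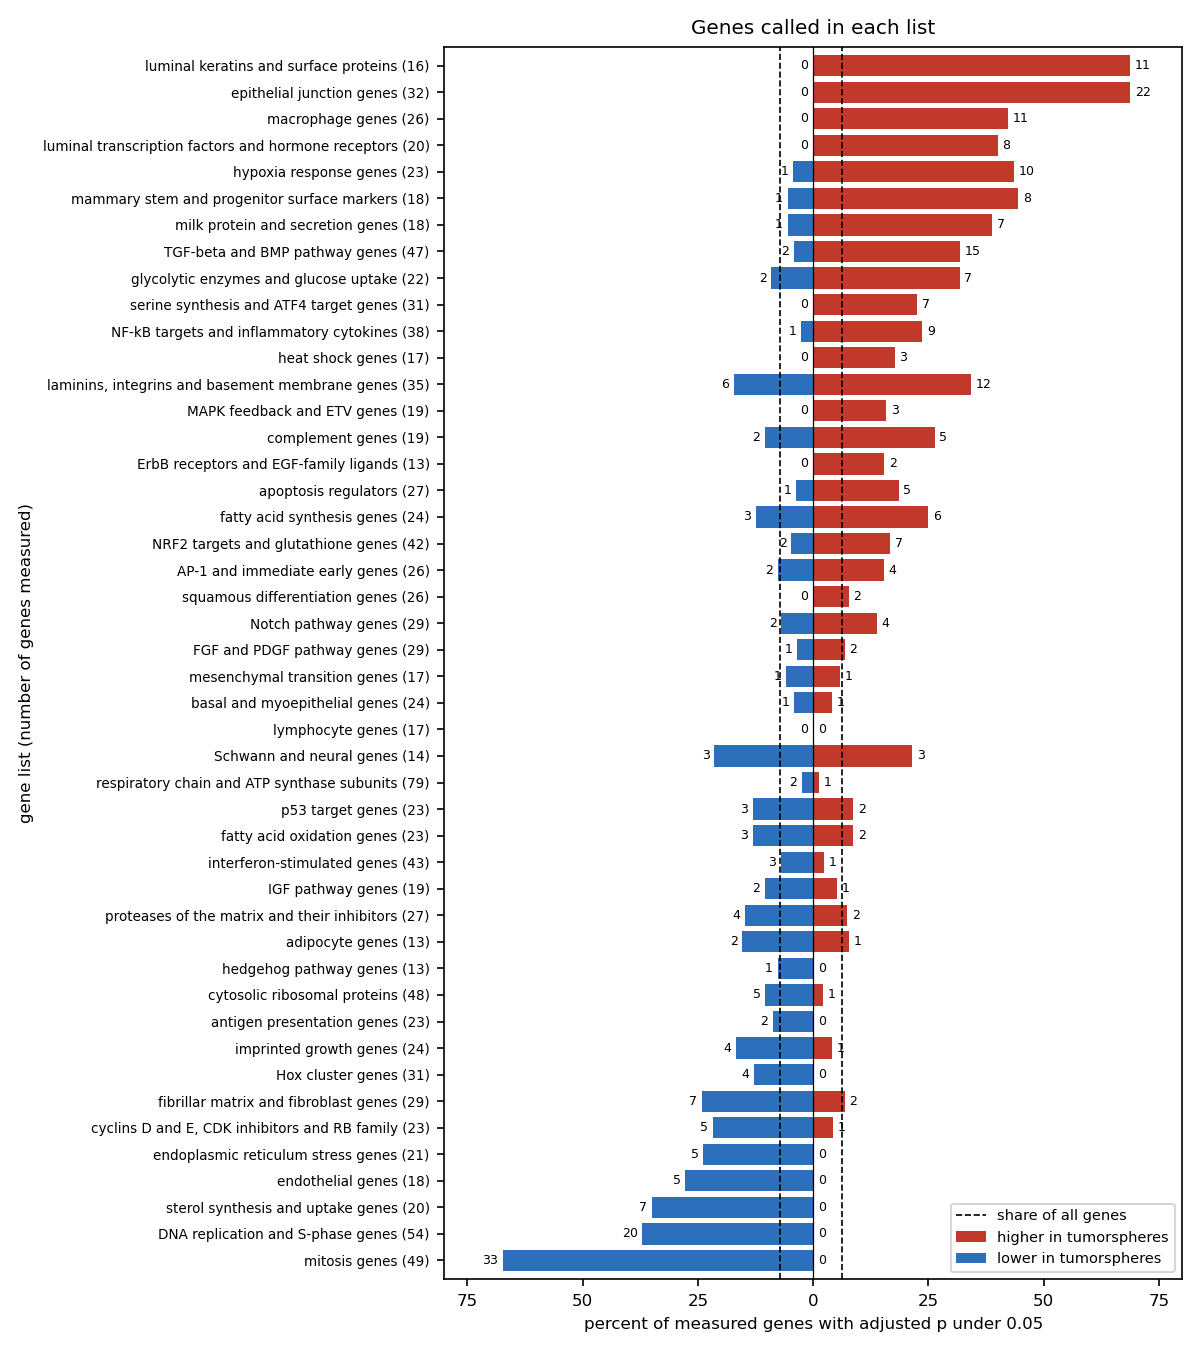
Share of measured genes called higher (red, to the right) or lower (blue, to the left) in tumorspheres in each of 46 gene lists (y axis, number measured in brackets), with the number of genes at the end of each bar and dashed lines at the shares of all genes, 6.22% and 7.14%. Luminal and junction lists are at the top and mitosis, replication and sterol lists at the bottom.

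Metabolic genes moved in separate directions. Genes of the response to low oxygen were higher for 10 of 23, with a median of 0.29, and only Hif1a was lower. Egln3, an oxygen-sensing prolyl hydroxylase, had 7.83, 6.89 and 7.34 in the tumorspheres and 5.69, 5.61 and 5.64 in the mammospheres (log2 fold change 1.71, standard error 0.173, adjusted p = 7.69e-05), Vegfa, an angiogenic growth factor, 8.80, 8.87 and 8.94 in the tumorspheres and 7.93, 7.70 and 7.77 in the mammospheres (log2 fold change 1.07, standard error 0.0787, adjusted p = 5.77e-06), and Ddit4, an inhibitor of mTORC1, was higher by 1.50 (adjusted p = 0.00172). Hif1a itself had 7.55, 7.95 and 8.36 in the tumorspheres and 8.58, 8.62 and 8.73 in the mammospheres (log2 fold change -0.69, standard error 0.176, adjusted p = 0.0218), which did not pass once array 1099A, 1100A, 859A or 860A was removed, and of its 3 other probe sets, which gave -0.51 to 0.37, 1 was lower. Glycolytic enzymes and glucose carriers were higher for 7 of 22 and lower for 2. Pfkl, the liver form of phosphofructokinase, had 9.49, 9.15 and 8.90 in the tumorspheres and 8.15, 7.85 and 7.72 in the mammospheres (log2 fold change 1.27, standard error 0.144, adjusted p = 1.65e-04), and Slc2a1, the glucose carrier GLUT1, was higher by 0.62 (adjusted p = 2.36e-04), while the lactate carrier gene Slc16a1 was lower (-0.80, adjusted p = 6.54e-04) and so was Eno2 (-0.53, adjusted p = 0.0164), whose call was lost without array 858A or 859A. The number higher was 3 with centred arrays, with the authors' scaling alone or without array 859A, 4 without array 860A, 12 without array 1101A and 13 with array weights.

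Genes of sterol synthesis and uptake were lower for 7 of 20 and higher for none, with a median of -0.16. Hmgcs1, the synthase that feeds the mevalonate pathway, had 9.23, 9.58 and 9.03 in the tumorspheres and 10.28, 10.16 and 10.38 in the mammospheres (standard error of the difference 0.129, adjusted p = 4.23e-04), and its 3 other probe sets were lower too. Stard4, a sterol carrier, and Msmo1, a methylsterol oxidase, were lower by signed differences of -0.76 (adjusted p = 0.00127) and -0.74 (adjusted p = 4.57e-04), and Idi1, an isomerase of the pathway, by -0.69 with its brighter probe set. Array 1101A had the lowest median of the list, -0.39, against -0.09 and -0.08 in the other tumorspheres. Srebf1, the SREBP gene more closely tied to fatty acid synthesis, ran the opposite way, with 9.83, 10.14 and 10.39 in the tumorspheres and 8.59, 8.62 and 8.62 in the mammospheres (log2 fold change 1.51, standard error 0.116, adjusted p = 7.44e-06), and Srebf2, the one more closely tied to sterols, gave 0.04 and did not pass. Among 24 fatty acid synthesis genes 6 were higher, such as Me1, malic enzyme, and Acsl4, an acyl-CoA synthetase (0.86, adjusted p = 1.85e-04, and 0.86, adjusted p = 0.00320), and 3 were lower, led by the elongase gene Elovl6 (-0.65, adjusted p = 0.00489). The number lower was 1 without array 858A or 859A. NRF2 targets and glutathione genes were higher for 7 of 42 and lower for 2, namely Gstm2 and Cbr3, but for 5 and 5 with the values as deposited or centred, 10 and 8 without array 1101A and 10 and 7 with array weights. The groups overlap for Cbr3, which did not pass with only the 6 arrays or when any 1 array but 1101A was left out. Mgst1, a microsomal glutathione transferase, had 10.33, 10.36 and 10.64 in the tumorspheres and 9.28, 9.08 and 9.45 in the mammospheres (log2 fold change 1.17, standard error 0.107, adjusted p = 3.31e-05), although its other probe set gave -0.06, and Gclm, a subunit of the enzyme that starts glutathione synthesis, was higher by 0.71 (adjusted p = 0.00160). Of 21 genes of endoplasmic reticulum stress 5 were lower, among them the chaperone genes Canx (-0.47, adjusted p = 0.00225) and Calr (-0.35, adjusted p = 0.0144). The number was 3 without array 1100A or 860A and 2 without array 859A, and the Calr call was lost without array 1100A, 858A or 859A. Small heat shock genes stood out among 17 heat shock genes, with Hspb1 at 9.54, 9.57 and 9.99 in the tumorspheres and 8.17, 8.17 and 8.34 in the mammospheres (log2 fold change 1.47, standard error 0.112, adjusted p = 6.89e-06) and Cryab higher by 1.16 (adjusted p = 2.25e-04). Hspa2 was the third gene called but did not pass when any 1 array but 1101A was left out, and 3 were lower with the values as deposited or centred. Few respiratory chain subunits passed, with Atp5d higher and Ndufa12 and Sdhd lower among 79, but 13 were lower with centred arrays, 11 without array 1101A and 12 with array weights. Atp5d did not pass with the values as deposited or centred or without array 1099A, 1100A, 859A or 860A, and Sdhd did not without array 1100A, 858A, 859A or 860A. Of the ATF4 targets and serine synthesis genes, 7 of 31 were higher and none lower, but 2 were higher and 2 lower with centred arrays, 3 and 1 with the values as deposited, and 4, 3 and 3 were higher without array 858A, 859A and 860A. Without array 1101A 5 were higher and 3 lower.

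Receptors and signaling genes were described by their roles. Among 13 ErbB receptors and ligands, Erbb3, the partner of the Her2 receptor in binding neuregulin, had 7.42, 7.54 and 7.66 in the tumorspheres and 6.23, 6.16 and 6.21 in the mammospheres (log2 fold change 1.34, standard error 0.0777, adjusted p = 8.03e-07), although its other probe set gave 0.18 and did not pass. Erbb2, which encodes the mouse Her2 receptor, was higher by 0.34 (adjusted p = 0.0128), which did not pass when array 858A was left out, and whether its probe set reads the transgene was not tested. The ligand genes Egf, Tgfa, Btc, Ereg and Hbegf gave -0.10, 0.04, -0.03, -0.05 and 0.22 and did not pass. Of 19 feedback and ETV genes downstream of MAPK signaling, 3 were higher, namely Ier3 (1.84, adjusted p = 1.05e-04), Etv5 (0.46, adjusted p = 0.0317) and Lif (0.39, adjusted p = 0.00802), and 5 with array weights. Etv5 did not pass with centred arrays, nor when any array but 1100A was left out.

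Genes of TGF-β and BMP signaling were higher for 15 of 47, and Tgfbr1 and Fstl1 were lower. Thbs1, thrombospondin 1, an activator of latent TGF-β, had 8.44, 9.08 and 9.04 in the tumorspheres and 6.39, 7.02 and 6.92 in the mammospheres (log2 fold change 2.08, standard error 0.211, adjusted p = 7.73e-05). Ltbp2, a matrix protein of the latent TGF-β binding family, had 8.59, 8.38 and 8.71 in the tumorspheres and 6.66, 6.48 and 6.36 in the mammospheres (log2 fold change 2.06, standard error 0.107, adjusted p = 3.15e-07), and the ligand gene Tgfb3 was higher by 1.17 (adjusted p = 1.15e-04). The receptor gene Tgfbr1 was lower (-0.67, adjusted p = 0.00187), while its 2 other probe sets did not pass. Fstl1 did not pass without array 859A. The number higher was 9 without array 1100A, 859A or 860A. In the Notch pathway, Hey1, Dll1, Notch1 and Notch3 were higher and Adam17 and Heyl lower among 29 genes. These were 13.8% and 6.90% of the list, against 6.22% and 7.14% of all genes. The ligand gene Dll1 had 8.39, 8.41 and 7.98 in the tumorspheres and 7.25, 7.17 and 7.17 in the mammospheres (log2 fold change 1.06, standard error 0.110, adjusted p = 8.69e-05), the receptor gene Notch1 was higher by 0.64 (adjusted p = 0.00153), and of the target genes Hey1 was higher and Heyl lower (-0.45, adjusted p = 0.0144). Neither Heyl nor Adam17 passed without array 859A, and 1 gene of the list was lower without array 1100A. NF-κB targets and cytokines were higher for 9 of 38, led by Lcn2, with Il33 lower, and for 5 without array 859A or 860A. Il33 did not pass when any 1 array but 1101A was left out. Nfkbiz, an atypical IκB protein, was higher by 0.81 (adjusted p = 0.0247), chiefly in array 1101A, and this call was lost with only the 6 arrays and without array 859A or 860A. Most cytokine genes of the list did not pass, among them Il6, Tnf, Il1b and Ccl2 at 0.07, -0.02, 0.12 and 0.06. Sdc4, a heparan sulfate proteoglycan that acts with FGF receptors, had 10.57, 10.13 and 9.24 in the tumorspheres and 7.01, 7.02 and 7.06 in the mammospheres (log2 fold change 2.95, standard error 0.277, adjusted p = 4.14e-05) and was spread widely over the tumorspheres. In the rest of the 29 FGF and PDGF pathway genes Fgfr1 was higher and Pdgfrb lower, the former not past the test when array 1100A, 1101A, 859A or 860A was left out, and of 13 hedgehog pathway genes Gli2 was lower, which did not pass without array 859A. Of 19 IGF pathway genes, Igfbp5 was higher and Grb10 and Igf1, insulin-like growth factor 1, were lower (-0.89, adjusted p = 3.22e-05 for Igf1).

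Other regulators were called in both directions, in part at rates near those of all genes, 6.22% higher and 7.14% lower. The shares higher of p53 target and fatty acid oxidation genes lay near these rates. So did the shares lower of AP-1 and immediate early genes and of antigen presentation genes. Whether the lists of this paragraph differ from all genes was not tested. Of 26 AP-1 and immediate early genes, Junb, an AP-1 subunit, was higher with 8.18, 8.43 and 8.73 in the tumorspheres and 7.70, 7.66 and 7.72 in the mammospheres (log2 fold change 0.75, standard error 0.118, adjusted p = 0.00149), while Egr2 and Klf10 were lower. In all 4 were higher, but 1 without array 859A or 860A. Of 23 p53 target genes, Ddit4 and Perp were higher and Zmat3 (-0.56, adjusted p = 8.77e-04), Sesn1 and Ei24 were lower, with 1 lower without array 1100A, 859A or 860A and 8 without array 1101A. Of 27 apoptosis regulators 5 were higher and Xiap was lower, and 1 was higher without array 859A or 860A. Xiap did not pass without array 1099A, 1100A, 858A or 860A, and its 5 other probe sets gave 0.02 to 0.24. Complement genes were higher for 5 of 19, led by Clu, the chaperone clusterin, with 9.15, 9.74 and 10.04 in the tumorspheres and 7.59, 7.55 and 7.64 in the mammospheres (log2 fold change 2.05, standard error 0.174, adjusted p = 1.83e-05), and C1ra and Hc were lower. C1ra did not pass with only the 6 arrays or without array 1100A, 859A or 860A, and with array weights 9 were higher and 4 lower. Of 23 fatty acid oxidation genes, Hadh and Eci1 were higher and Acadl, Cpt1a and Cpt2 were lower, with 1 lower when array 1100A or any 1 mammosphere array was left out. Hadh did not pass without array 860A. Antigen presentation genes were lower for 2 of 23, the chaperone genes Canx and Calr.

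The largest falls were smaller than the largest rises. Ptn, the heparin-binding growth factor pleiotrophin, had 5.02, 5.37 and 4.33 in the tumorspheres and 7.19, 7.15 and 6.95 in the mammospheres (log2 fold change -2.19, standard error 0.250, adjusted p = 1.71e-04), and its other, brighter probe set was lower by a signed difference of -1.29. Itm2a, a membrane protein, had 7.55, 8.08 and 6.84 in the tumorspheres and 9.49, 9.77 and 9.74 in the mammospheres (log2 fold change -2.18, standard error 0.227, adjusted p = 9.39e-05). Its brighter probe set gave -1.12, so that neither gene is among those below -2 when the brightest probe set stands for the gene. Array 1101A was the lowest for both. Efemp1, the matrix glycoprotein fibulin-3, and Thbs4, thrombospondin 4, were lower by signed differences of -2.09 (adjusted p = 2.11e-04) and -1.93 (adjusted p = 9.41e-04). Tpsab1, a mast cell tryptase, had 6.14, 6.20 and 6.16 in the tumorspheres and 8.14, 7.62 and 8.31 in the mammospheres (log2 fold change -1.86, standard error 0.147, adjusted p = 1.01e-05), and the mean of the serum-treated cells, 6.15, was close to the tumorspheres. Next came Adgrd1, an adhesion receptor, Hpca, a calcium sensor, and Rgs2, a regulator of G protein signaling, with -1.66, -1.64 and -1.63, and then Itih5, Idi1, Enpep, Slc25a5, Nid2, Ndn and Egr2 between -1.57 and -1.43. Egr2, an immediate early transcription factor, was lower with both of its probe sets. Of Slc25a5, a mitochondrial ADP/ATP carrier, 4 of 7 other probe sets were lower, and of Ndn, the imprinted growth suppressor necdin, 3 of 7, with others between -1.04 and -0.07 and between -1.34 and 0.12. In the list of imprinted genes, Plagl1 (-1.38, adjusted p = 3.70e-04), Mest (-1.05, adjusted p = 4.81e-04), Grb10 and Impact were lower and Phlda2 higher (0.40, adjusted p = 0.00587) among 24, and 7 were lower with centred arrays. The second probe set of Plagl1 gave -0.23, and those of Grb10, at 0.27 and 0.29, had the opposite sign of its call (-0.58, adjusted p = 0.0205) and did not pass. Grb10 did not pass with only the 6 arrays, nor when any 1 mammosphere array was left out. Among probe sets with several symbols, the largest fall was -3.01 and the largest rise 4.10, each of a probe set assigned to 2 symbols. Neither can be named.

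Tumorsphere cultures differed more from each other than mammospheres did. The median SD of a probe set was 0.0937 over tumorspheres and 0.0656 over mammospheres, and 95 genes varied by more than 1 over the tumorsphere arrays against 4 over the mammosphere arrays. Among probe sets with a value above the median of all, Dlk1, an inhibitor of adipocyte differentiation, varied most over the tumorspheres, with 9.68, 10.47 and 7.67 against 10.53, 10.36 and 9.99 in the mammospheres. Krt14 ran from 5.83 in array 1099A to 8.03 in array 1101A, and Tgfbi, a matrix protein, had 7.70, 8.36 and 6.35 against 8.89, 8.46 and 8.78. Array 1101A stood apart in most of these genes, with the lowest Dlk1, Id3, Tgfbi and Rgs5 and the highest Krt14, Cck, Tfpi2 and Ccl11. Id3, an inhibitor of helix-loop-helix factors, had 7.29, 8.23 and 6.07, and Rgs5, a gene of pericytes, 6.95, 5.72 and 4.96 with 5.05, 5.18 and 5.04 in the mammospheres. The same culture had the highest list median for luminal keratins, 1.12 against 0.98 and 0.76, and the lowest for mesenchymal transition genes, -0.32 against -0.02 and 0.07. Over the mammospheres the widest ranges were those of Sfpq, a nuclear splicing factor, with 6.30, 4.80 and 5.48, Slc20a1, a phosphate carrier, with 6.71, 5.34 and 6.60, and Malat1, a nuclear noncoding RNA, with 7.67, 6.33 and 7.47. Array 859A was the lowest in each of these 3. Of the 8 widest, Csn3, Malat1, Slc20a1, Sfpq, Sox4 and Hnrnpl were called higher in tumorspheres. The calls of Sfpq and Hnrnpl were lost without array 1100A, 859A or 860A, and that of Hnrnpl also without array 1099A. The other probe set of Slc20a1 gave 0.05 and did not pass. All 4 other probe sets of Sfpq gave differences below 0, and 2 of them were called lower.

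**Figure D4:**
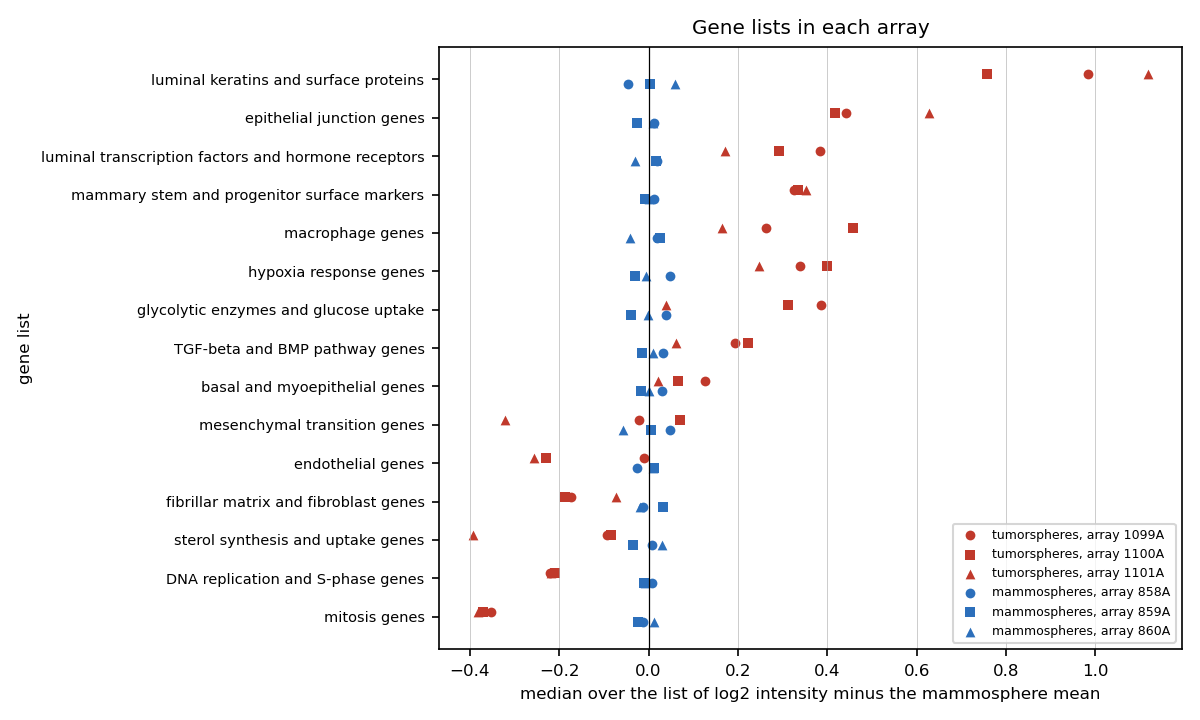
Median over the genes of a list of the log2 intensity minus the mean of the mammosphere arrays (x axis), for 15 lists (y axis), 1 symbol per array. All 3 tumorspheres lie near -0.37 for mitosis genes and between 0.76 and 1.12 for luminal keratins, while glycolytic and mesenchymal transition genes differ between the tumorspheres.

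**Figure D5:**
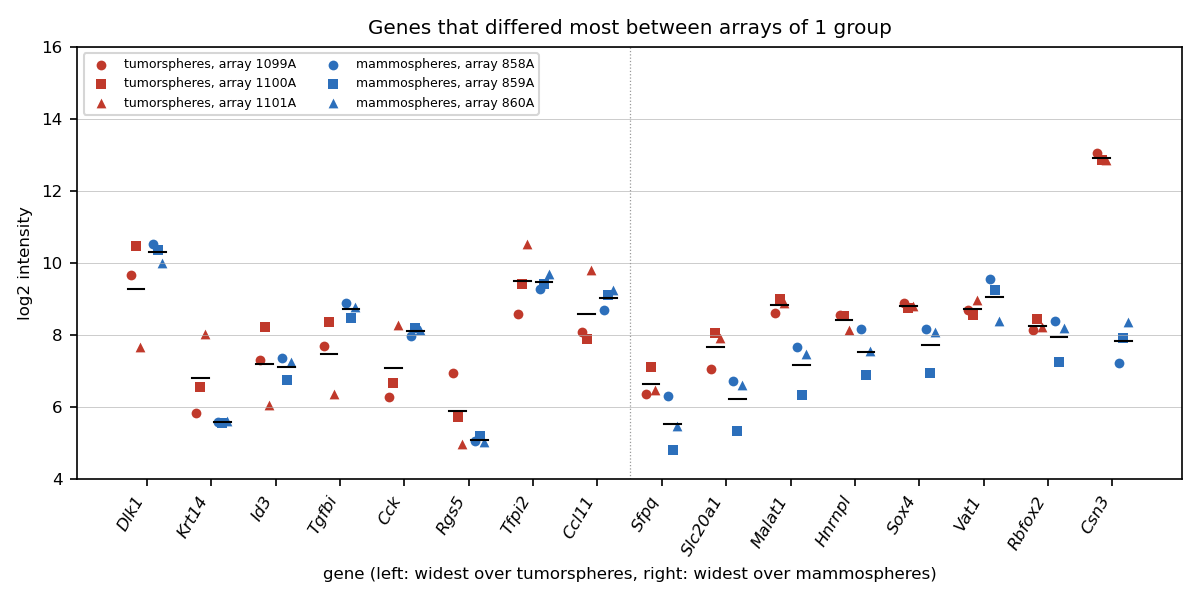
Log2 intensity (y axis) of the 8 genes with the widest range over tumorsphere arrays and the 8 with the widest range over mammosphere arrays (x axis), 1 symbol per array and group means as bars. Array 1101A is at an end of the tumorsphere range for the genes on the left, and array 859A is the lowest mammosphere for 6 of the 8 on the right.

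The lists whose shares called higher and lower were both at or under the shares of all genes were those of basal and myoepithelial genes, mesenchymal transition, lymphocytes, interferon-stimulated genes and the respiratory chain. Hox genes were lower for 4 of 31, but for 1 when array 1100A or any 1 mammosphere array was left out. Cytosolic ribosomal proteins were lower for 5 of 48, but for 1 without array 859A or 860A. In this ribosomal list 1 gene was called higher, and the differences ran from -0.54 to 1.30 with a median of 0.034. For a description by chromosome, a filter on mean intensity kept the brighter genes, 153 to 561 per autosome and 175 on X. Over these, the median difference of a tumorsphere array from the mammosphere mean lay between -0.064 and 0.071 for the 19 autosomes. For X it lay between -0.098 and -0.037. Of 498 genes with more than 1 called probe set, 43 had calls in opposite directions. The difference between the 3′ and 5′ probe sets of Actb, a measure of RNA integrity, was 0.23 to 0.37 in the tumorspheres and 0.34 to 0.57 in the mammospheres, which overlap. That of Gapdh was -0.25 to -0.23 in the tumorspheres and -0.21 to -0.15 in the mammospheres, with no overlap. The bioB, bioC, bioD and cre hybridization spikes averaged 9.69 to 9.90 in the tumorspheres and 9.24 to 9.41 in the mammospheres, and the dap, lys, phe and thr spikes 7.76 to 8.76 and 8.79 to 9.24. The part of these differences in the results was not tested.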

How the data were processed

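Affymetrix MOE430A arrays measured RNA of 3 tumorsphere, 3 mammosphere and 3 serum-treated mammosphere cultures. The authors deposited 1 linear intensity per probe set and array. They name GeneSpring, and the summary and scaling methods are not given in the sources used here. No detection calls or scanner files were used.

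Intensities plus 8.67 were taken to log2 and quantile normalized over 22690 probe sets, 64 of them controls that were left out of the tests. limma 3.58.1 in R 4.3.3 fitted 3 group means to 9 arrays (lmFit, eBayes with an intensity trend, 6 residual degrees of freedom), two-sided, with Benjamini-Hochberg adjustment over 22626 probe sets and a threshold of 0.05. Scripts were tested on simulated data. A single symbol was assigned to 20380 probe sets, several to 691 and none to 1555, from the platform annotation, and 20351 matched RefSeq by Entrez identifier. A gene was represented by its probe set of the highest mean.

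A naming rule selected the 15 genes that rose most and the 15 that fell most among called probe sets with separate groups. In each of 46 lists and the sex chromosome genes it selected the 3 largest called rises and falls. The 8 widest ranges in each group, Erbb2 and the defining cell markers were selected too. The text names only part of the genes so selected, and leaves out, for example, those of the Hox and ribosomal protein lists. Members named beyond these complete a small count or are well-known members of a list, and were chosen after their values were seen. The comparison and the lists were chosen with earlier results of these data known. Figures were drawn with matplotlib 3.10.9. P-values measure only the spread between these cultures. Alternatives were the values as deposited, centring, other pseudocounts, a filter on dim probe sets, other variance settings, only the 6 arrays, a stricter threshold and leaving out each array.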

Additional observations from a re-analysis of the deposited data

Results flagged for a closer look

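The array's control probe sets for 18S ribosomal RNA, which no comparison used, were higher in tumorspheres than in mammospheres by log2 differences of 1.64, 2.07 and 1.93 for the 3′, 5′ and middle probe sets. The 3′ probe set had 9.53, 9.60 and 8.74 in the tumorspheres and 7.47, 7.15 and 8.34 in the mammospheres, and the groups did not overlap in any of the 3. Of the probe sets tested, 33.3% also had groups without overlap. In the serum-treated arrays the 3′ probe set was 10.90, 8.06 and 10.48. The part of this difference in the gene results was not tested.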

How the results depend on the processing

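Array weights raised the probe sets called from 3231 to 5860, of which 2730 were higher and 3130 lower in tumorspheres. A threshold of 0.01 gave 1549, 738 and 811. Leaving out 1 array at a time gave 1866 to 4084 called, 867 to 1803 higher and 999 to 2281 lower, the fewest without mammosphere array 859A and the most without tumorsphere array 1101A. Without array 859A 1842 probe sets were called in the same direction as with all arrays, and 1876 without array 860A. The other alternatives gave 2553 to 3586. They included the 6 arrays scaled on their own, which was added after seeing the data and gave 2916. Of 190 called probe sets that the naming rule selects, 140 kept their call under every alternative that tested them except the stricter threshold, and none changed direction. Without array 859A 43 calls were lost, and without array 860A 36. The cause of these changes was not tested. No paired analysis was made, because the tumorspheres came from tumors of transgenic mice and the mammospheres from glands of virgin FVB/N mice. Neither the labels nor the columns number the replicates. With 3 arrays a group and no detection calls, a dim probe set that did not pass cannot be taken as level, and probe sets of a gene can disagree.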

Other observations

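The following groups of genes outside the lists were picked after their values were seen and are given as descriptions. Of 6 Iroquois homeobox genes, which encode developmental transcription factors, 4 were higher in tumorspheres. Irx1 had 9.24, 9.35 and 9.15 in the tumorspheres and 7.30, 7.14 and 7.20 in the mammospheres (log2 fold change 2.04, standard error 0.0893, adjusted p = 7.10e-08), and Irx2, Irx3 and Irx5 were higher by 1.79, 1.36 and 0.98. Irx4 and Irx6 gave 0.00 and 0.01 and did not pass. All 3 chains of collagen IX, a collagen known from cartilage, were higher, with 0.79 for Col9a1, 0.67 for Col9a2 and 0.68 for Col9a3.

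Of 10 mast cell genes 3 were lower in tumorspheres, against 7.14% of all genes. These were the tryptase genes Tpsab1 and Tpsb2 with -1.86 and -0.71, and the carboxypeptidase gene Cpa3 with -0.63. The other probe set of Tpsb2, at -0.09, did not pass. The protease genes Mcpt4 and Cma1 gave -0.35 (adjusted p = 0.0543) and -0.25 and did not pass. The receptor chain genes Fcer1a and Ms4a2 gave -0.04 and -0.06, with overlapping groups. The remaining members, Kit, Gata2 and Hdc, did not pass either, and the difference of Kit was positive. The part of mast cells in these differences was not tested.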
